A study of Homo sapiens with 18 samples.

Results

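The squamous differentiation genes described here are a fixed list of 52, chosen with earlier results of these data known. They were taken by gene symbol from the deposited count table. All 52 were found among its 57773 rows, and each value is the count on the gene's own row, that is, on the strand the annotation gives it. RNA-seq was done in RWPE1, a benign epithelial cell line from human prostate, carrying 1 of 3 MACC constructs (modifiers of chromatin at androgen response elements, AREs). Each construct joins the DNA-binding domain of the androgen receptor to ERT2, a hormone-binding domain that tamoxifen activates, and all carry the 3X FLAG tag. The neutral construct has the tag alone, the repressive construct adds the KRAB repressor domain, and the activating construct adds VP64, a transcriptional activator. Each line was given ethanol vehicle or tamoxifen for 48 h, with 3 biological replicates in each of the 6 groups. The labels disagree on the dose of tamoxifen, with 1.5 uM under treatment and 1.25 uM under protocol, and which one was used was not resolved. Each line is a blasticidin-selected population from lentiviral infection, so that line and construct cannot be told apart, and every group had the construct integrated, including the vehicle groups. All cells were grown in keratinocyte serum-free medium. Whether replicates came from separate cultures is not stated, so p-values measure only the spread between these libraries.

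In stratified epithelia, cells that leave the basal layer switch on a program of squamous differentiation. Suprabasal keratins replace the basal ones, desmosomes are reinforced by plakins and plakophilins, and small proline-rich proteins, involucrin and other precursors are joined by transglutaminases into the cornified envelope under the membrane. Normal prostate epithelium does not cornify, although its basal cells hold keratins and p63 in common with the basal layer of the skin, and squamous metaplasia of prostate basal cells is well known.

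The libraries held 675593 to 792286 counts (median 755562), and 3835 to 4494 rows per library reached 10 counts. At this depth, a row with 0 counts in a library may still stand at up to 3.79 to 4.44 CPM (counts scaled to a common library total), taking 3 counts as the limit that 0 allows. This limit, and the counting intervals of ratios of summed counts, cover counting error only. The summed level of 9 basal epithelial markers (KRT5, KRT14, TP63 and others) was 1945 to 3470 CPM over the 18 libraries, and that of 8 luminal prostate markers 816 to 1358 CPM, with KLK3 at 0 in every library. Of the mesenchymal markers 5 of 7 were at 0 in every library (COL1A2, COL3A1, DCN, LUM and PDGFRB), and of the immune markers 3 of 5 (PTPRC, CD3E and MS4A1). In the repressive line the basal sum ranged over 1945 to 2783 CPM with vehicle and 2501 to 3470 CPM with tamoxifen, and the luminal sum over 1231 to 1358 CPM and 1136 to 1208 CPM. The luminal sum was also lower with tamoxifen in every library of the other lines, at 980 to 1035 CPM and then 816 to 914 CPM in the neutral line and 1038 to 1083 CPM and then 830 to 946 CPM in the activating line. The mesenchymal sum, from VIM and COL1A1, was 183 to 242 CPM with vehicle and 90.3 to 164 CPM with tamoxifen in the repressive line, and 113 to 149 CPM over the groups of the other lines. In the neutral line the basal sum ranged over 1961 to 2407 CPM and 2558 to 3159 CPM, and in the activating line over 2248 to 2660 CPM and 2568 to 3155 CPM. The part of these marker shifts in the results was not tested.

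The 52 genes were thinly covered. Together they held 10259 counts, 0.0763% of all counts. Of the 52, 16 reached 10 counts in at least 3 of the 18 libraries and were tested among 5816 rows, and 36 did not. The tested members were the keratins KRT13 and KRT16, the cornified envelope genes TGM1 and SPRR1B, the protease inhibitor CSTA, the desmosome and plakin genes DSP, PKP1, PKP3, PPL and EVPL, the S100 genes S100A2, S100A9 and S100A14, the surface and junction genes LY6D and CLDN4, and the transcription factor KLF4. KRT13 reached the filter only through the tamoxifen-treated repressive libraries and CSTA only through those of the activating line, so that counts over the 16 are descriptions and no support for a direction. Near-identical paralogs can split reads, which makes KRT16 (with KRT14 and KRT17), KRT6B and KRT6C (with KRT6A), SPRR1A and SPRR1B, the SPRR2 genes, and SERPINB3 and SERPINB4 uncertain.

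Many rows of this table lie opposite another gene. Exons overlapped by a gene on the opposite strand were present in 23.05% of annotated rows, which carried 89.0% of the counts of all annotated rows. Of the listed members 11 of 52 have such an overlap, and of the tested members 4 of 16 do, LY6D, KRT13, DSP and KLF4. The library kit keeps strand, and the strand setting used for counting is not given in the sources used here, so the opposite row is named for each of the 11. If counting used the setting opposite to the kit's, reads from a gene's own RNA would stand on the opposite row, or on no row where there is no such gene. Every member and marker value here, the markers at 0 included, would then mean something else. Which setting was used was not tested. The shares of the 2 rows bear on it only as values, with KRT13 at 82 counts and its opposite row at 3388 in the treated repressive line, LY6D at 186 and 685, and SERPINB3 at 0 and 1505. DSP stood at 141 and 2 counts, but its opposite row shares only 81 of its 13619 exonic bases. That row could hold few DSP reads under either setting, so for DSP the share of the 2 rows cannot bear on the question. What the counts on DSP's own row mean for it was not tested.

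The constructs bind AREs, a pair of half-sites in opposite orientation with a gap between them. ARE-like letters, GNACANNNTGTNC, which read the same on both strands in their fixed positions, were searched from 10000 bases before to 10000 bases after each gene start in GRCh37. They occurred near 5 of the 16 tested members (31.25%) and near 22.3% of the 5635 tested rows matched to the annotation. The full palindrome, with a whole half-site AGAACA and its reverse complement, was found near 0 of the 16 members and near 0.337% of the tested rows. LY6D, described first among the results, is the fifth of them, with 1 match whose letters are not shown. The matches near the other 4 follow with the fixed letters in capitals, on the plus strand, and are printed so that the variable letters can be compared between sites. Distances below 0 lie before the gene start.
TGM1, chr14:24729251-24729263, at 4381 bases from the gene start: GtACAcaaTGTcC
KRT13, chr17:39666964-39666976, at -5013 bases from the gene start: GgACAtttTGTcC
KRT16, chr17:39773504-39773516, at -1359 bases from the gene start: GaACAttcTGTgC
CLDN4, chr7:73216109-73216121, at 2243 bases from the gene start: GaACAgaaTGTaC
In the 250 bases before the start (RefSeq, GRCh38.p14), AGAACA on either strand was in 2 of the 38 member promoters that were found, those of ECM1 and SPRR2A, against 12.4% of 27305 promoters. The promoters of LY6D, TGM1, KRT13 and KRT16 were not among the 38, so AGAACA was not searched there. A match of letters is a description and does not show binding, and these libraries hold no binding data.

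The comparison of tamoxifen with vehicle within a line holds activation of the construct together with any effect of tamoxifen itself. These cannot be told apart within a line. In the repressive line 3 of the 16 tested members were called, at a Benjamini-Hochberg adjusted p under 0.05 in DESeq2, LY6D and TGM1 higher and PKP1 lower with tamoxifen. The background in this line was 9.65% of all 5816 rows called in either direction and 5.62% called higher. The members were chosen with earlier results of these data known, so counts beside a background are descriptions, here and below. By edgeR the called members were LY6D and KRT13, and by limma-voom LY6D, TGM1 and KRT13. In the neutral line 0 of 16 were called, with a background of 0.774%, and in the activating line 0 of 16, with a background of 2.80%. An unadjusted p under 0.05 by DESeq2 was reached by 1 of 16 in each of these 2 lines, S100A14 in the neutral and KRT16 in the activating line. Of all 5816 rows, 451 and 605 reached it in these lines. In the repressive line it was reached by 4 of 16 members and 1147 rows. In the neutral and activating lines edgeR and limma-voom also called 0 members. DESeq2 gives no adjusted p to rows it sets aside for low mean counts, which left 13 of 16 members with one in the repressive line, 5 in the activating line and 1 in the neutral line. The median log2 fold change over the 16 was 0.37 in the repressive, 0.43 in the neutral and -0.053 in the activating line. Over all tested rows it was -0.023, 0.0048 and -2.7e-04 in the same order. Signs were mixed, with 10 of 16 above 0 in the repressive line, 11 in the neutral line and 7 in the activating line.

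**Figure D1:**
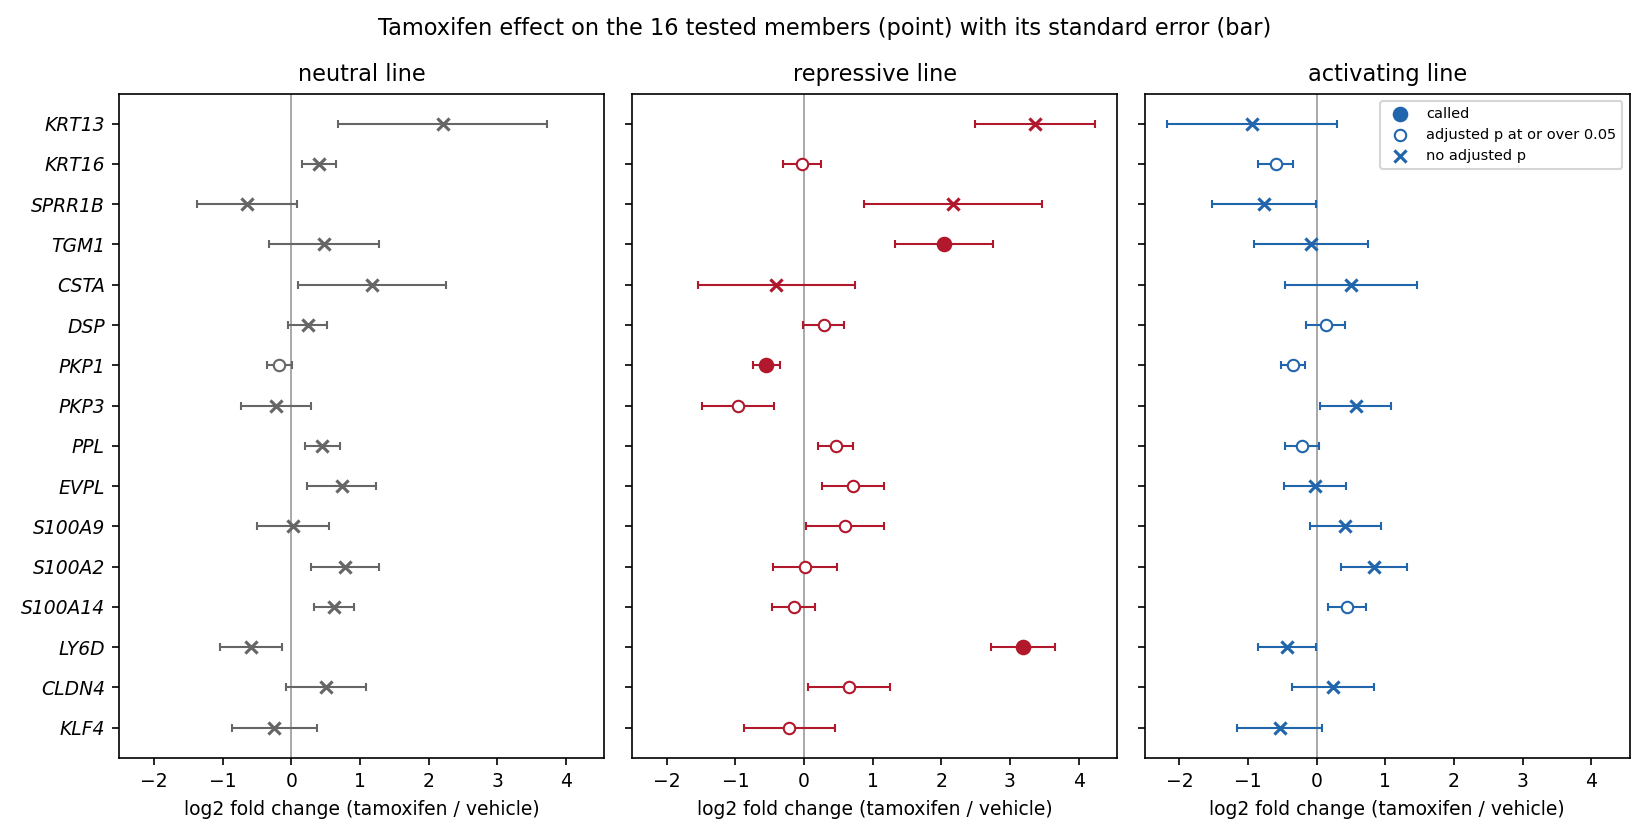
Log2 fold change of tamoxifen over vehicle (x axis) with its standard error for the 16 tested members (y axis, by role) in the 3 lines. Filled circles are members called at an adjusted p under 0.05, open circles those that were not, and crosses those without an adjusted p. Filled circles appear only in the repressive panel, for LY6D at 3.19, TGM1 at 2.04 and PKP1 at -0.55, and KRT13 stands at 3.37 there as a cross.

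Among the surface and junction genes, LY6D rose in the repressive line. LY6D encodes a small lipid-anchored surface protein of the Ly6 family found on keratinocytes (ENSG00000167656, chromosome 8, 143866298 to 143867955, minus strand, GRCh37). The repressive line had 9, 5 and 9 counts with vehicle and 86, 48 and 52 with tamoxifen. The neutral line had 20, 16 and 19 counts with vehicle and 17, 8 and 12 with tamoxifen, and the activating line 26, 16 and 31 and then 25, 16 and 11. The 3 tamoxifen-treated repressive libraries stood above all other 15 libraries, and the vehicle-treated repressive libraries were among the lowest. On normalized counts the repressive line went from 7.10 ± 2.26 to 64.6 ± 16.4 (SD, n = 3). The log2 fold change was 3.19 (SE 0.46, adjusted p = 3.12e-10, DESeq2), which is 9.14-fold. In the neutral and activating lines the estimates were -0.59 (SE 0.45) and -0.43 (SE 0.42), neither with an adjusted p.

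Whether the effect differed between lines was asked with interaction terms. LY6D was the 1 of 16 members called for repressive minus neutral, at 3.78 on the log2 scale (SE 0.65, adjusted p = 5.19e-07, DESeq2), with a background of 3.85% of rows. It was also the 1 member called for activating minus repressive, at -3.63 (SE 0.63, adjusted p = 8.14e-07, DESeq2), with a background of 4.25%. Both interactions use the same repressive libraries. For activating minus neutral 0 of 16 were called by DESeq2, edgeR and limma-voom, with a background of 0.619%. By each of them 1 of 16 (KRT16) had an unadjusted p under 0.05, against 431 of all 5816 rows by DESeq2. For repressive minus neutral 1 of 16 members and 808 rows had one by DESeq2. For activating minus repressive it was 4 of 16 members and 778 rows. Without replicate 2 of the tamoxifen-treated repressive libraries, LY6D had no adjusted p for repressive minus neutral, with a log2 estimate of 3.88 and an unadjusted p of 2.12e-08. In bulk libraries, more cells with a transcript and more RNA per cell cannot be told apart.

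The LY6D row and the row on its opposite strand moved together in the repressive line. RP11-706C16.8 (ENSG00000253715) shares 216 of LY6D's 1498 exonic bases. It had 27, 52 and 32 counts with vehicle and 258, 186 and 241 with tamoxifen in the repressive line, and rose by 2.82 on the log2 scale (SE 0.24, adjusted p = 2.22e-30, DESeq2). In the activating line the opposite row fell, from 98, 78 and 101 counts to 34, 42 and 33, at -1.31 (SE 0.25, adjusted p = 7.34e-06, DESeq2), where LY6D itself had the -0.43 given above. LY6D held 17.2% of the counts of both rows in the vehicle-treated repressive libraries and 21.4% with tamoxifen, and 20.9% and 32.3% in the activating line. Whether the 2 rows count the same RNA was not tested.

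**Figure D2:**
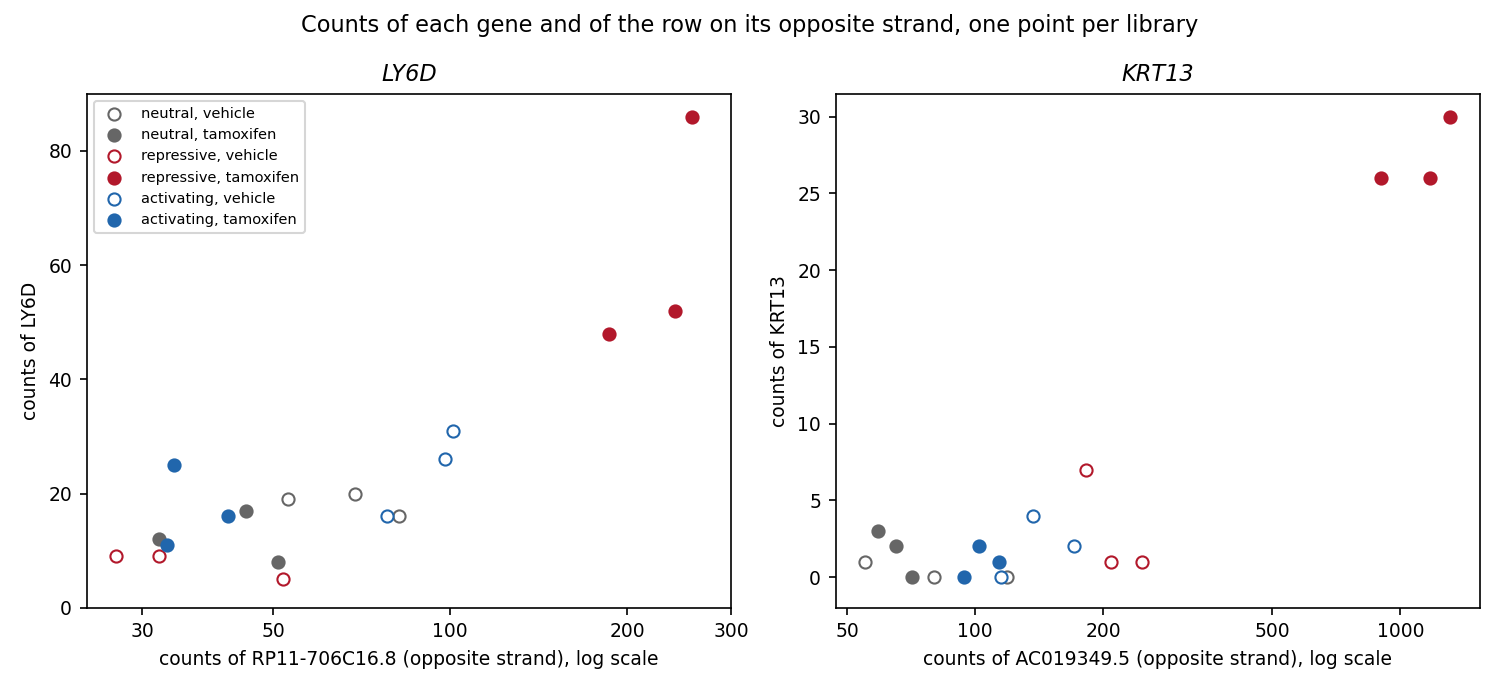
Counts of LY6D and KRT13 (y axes) against counts of the row on the opposite strand (x axes, log scale), with 1 point per library, colours for the lines and filled points for tamoxifen. In both panels the 3 tamoxifen-treated repressive libraries stand at the upper right, at 48 to 86 counts for LY6D and 26 to 30 for KRT13.

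CLDN4, a tight junction claudin and the other tested gene of this group (201 counts in all), ranged from 4 to 18 counts over the 18 libraries. Its largest tamoxifen estimate was 0.66 (SE 0.60) in the repressive line, and it was called in 0 of the 9 comparisons made, the 3 tamoxifen effects, the 3 interactions and the 3 comparisons of vehicle-treated lines.

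Among the cornified envelope genes, TGM1 rose in the repressive line. It encodes transglutaminase 1, the membrane-bound enzyme that crosslinks envelope precursors (ENSG00000092295, chromosome 14, 24718320 to 24733638, minus strand, GRCh37, no opposite-strand exon overlap). The repressive line had 5, 15 and 4 counts with vehicle and 30, 32 and 23 with tamoxifen. The neutral line had 2, 10 and 3 and then 8, 12 and 1 counts, and the activating line 3, 4 and 8 and then 0, 6 and 8. The treated repressive libraries lay above the other 15, while the groups of the other lines overlapped. Normalized counts in the repressive line were 7.30 ± 5.38 with vehicle and 30.1 ± 6.58 with tamoxifen (SD, n = 3). The log2 fold change was 2.04 (SE 0.71, adjusted p = 0.0374, DESeq2), which is 4.11-fold. Neither interaction of TGM1 with another line had an adjusted p, and the repressive minus neutral estimate was 1.56 (SE 1.07). The call depended on single libraries and on the tool. The adjusted p was 0.149 without replicate 1 and 0.169 without replicate 3 of the vehicle-treated repressive libraries, 0.0587 with edgeR, 0.0624 with scaling by total counts and 0.0147 with limma-voom. Without replicate 2 of the vehicle-treated repressive libraries, which had 15 counts, the log2 fold change was 2.84 (adjusted p = 0.0133, DESeq2). There was no adjusted p without replicate 2 of the vehicle-treated neutral line or without any 1 of the treated repressive libraries.

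SPRR1B, a small proline-rich envelope precursor, was called in 0 of the 9 comparisons by DESeq2 and is described here because its values stood out. It had 13, 7 and 11 counts with vehicle in the neutral line, 1, 0 and 1 in the repressive line and 7, 10 and 11 in the activating line. With tamoxifen the counts were 5, 5 and 10 in the neutral line, 6, 2 and 0 in the repressive line and 5, 5 and 6 in the activating line. The vehicle-treated repressive libraries did not overlap those of either other line. Group sums of 31 and 2 counts give a ratio of 16.1 for neutral over repressive (95% counting interval 4.10 to 139), and sums of 28 and 2 a ratio of 14.3 for activating over repressive (3.60 to 124). These ratios come from the values for which SPRR1B was picked and are descriptions only. DESeq2 gave no adjusted p for either comparison. For repressive minus neutral the adjusted p was 0.0410 without independent filtering, 0.0523 with edgeR and 0.287 with limma-voom.

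**Figure D3:**
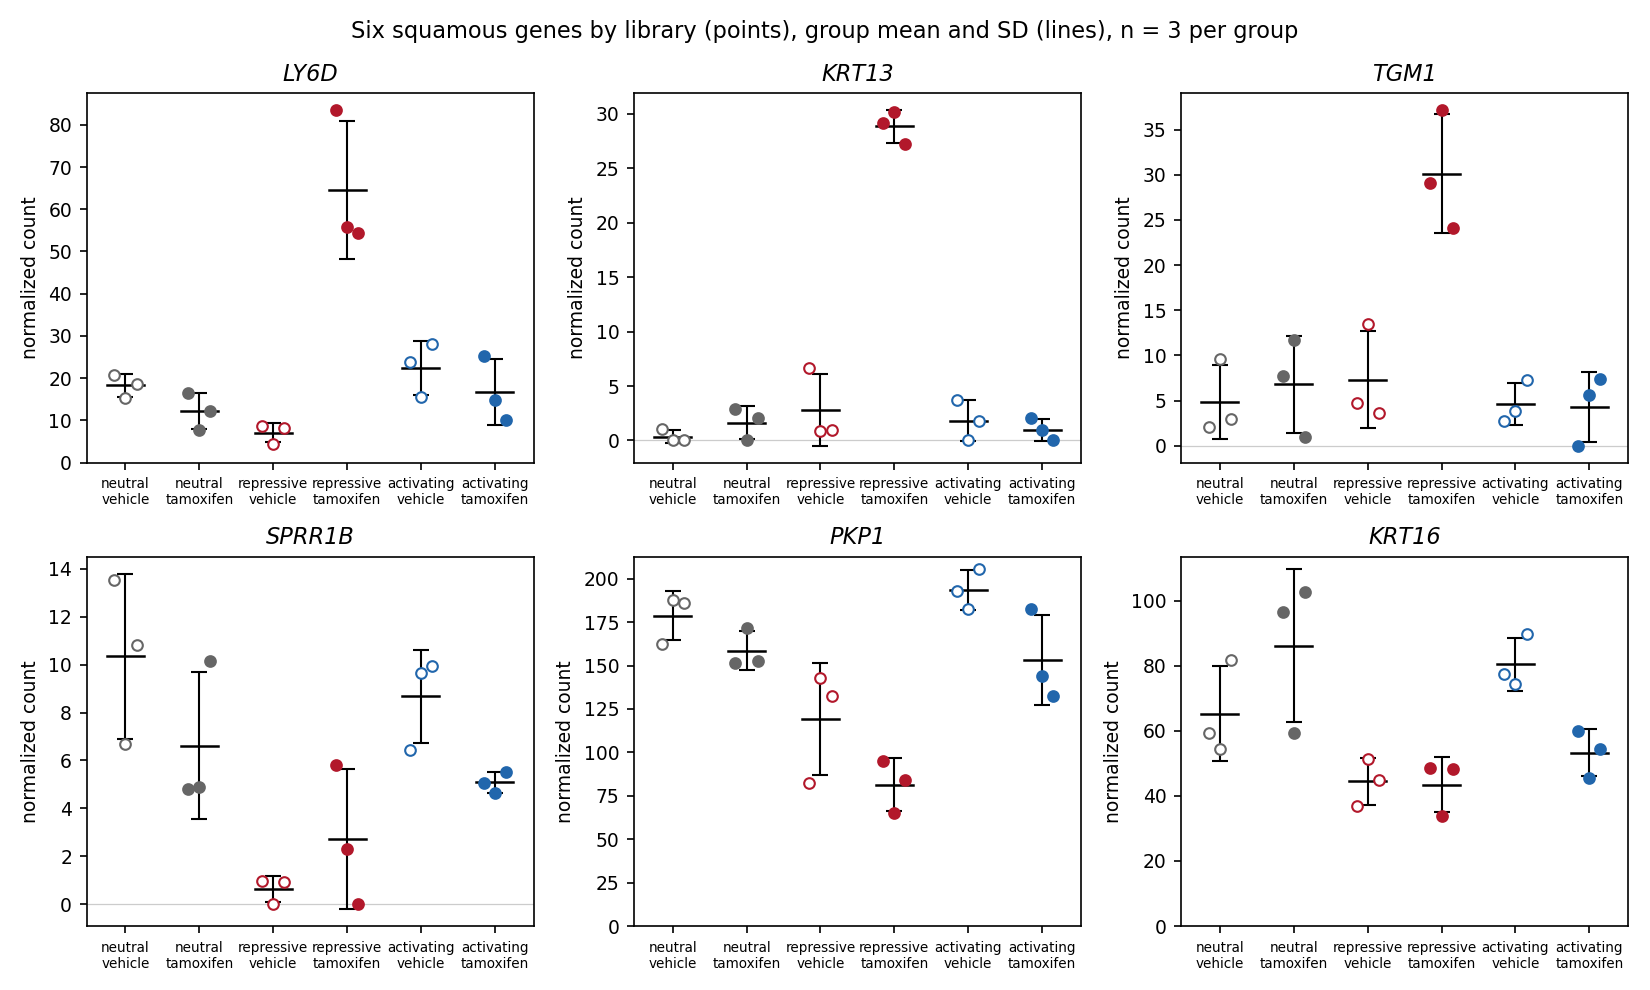
Normalized counts (y axes) of 6 members in the 6 groups, with 1 point per library, open for vehicle and filled for tamoxifen, and lines for the group mean and SD. LY6D, KRT13 and TGM1 are highest in the 3 tamoxifen-treated repressive libraries, SPRR1B is lowest in the vehicle-treated repressive libraries at a mean of 0.623, and PKP1 and KRT16 are lower in the repressive line than in the vehicle-treated activating line.

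Of the suprabasal keratins, KRT13 had 82 of its 106 counts in the treated repressive line. KRT13 is a type I keratin of the suprabasal layers of non-cornified stratified epithelia (ENSG00000171401, chromosome 17, 39657233 to 39661957, minus strand, GRCh37), and it is described although it has no adjusted p. The repressive line had 7, 1 and 1 counts with vehicle and 30, 26 and 26 with tamoxifen. The neutral line had 1, 0 and 0 and then 3, 0 and 2 counts, and the activating line 4, 0 and 2 and then 2, 1 and 0. No library outside the treated repressive group exceeded 7 counts. Normalized counts in the repressive line were 2.82 ± 3.31 and 28.8 ± 1.48 (SD, n = 3), a log2 fold change of 3.37 (SE 0.87) with an unadjusted p of 1.15e-04 in DESeq2, which set the row aside for its low mean. In 22 of 27 alternatives it had no adjusted p, and in the other 5 the adjusted p lay between 9.60e-04 and 0.0182. KRT13 was tested at all only because it was high in this group, so these values are no support for the change. Without replicate 1 of the vehicle-treated repressive libraries, the one with 7 counts, the log2 fold change was 4.99. The interaction for repressive minus neutral was 1.16 (SE 1.75), without an adjusted p. The difference of the effects, activating minus repressive, was -4.31 (SE 1.52), without an adjusted p in DESeq2, and at 0.181 with edgeR.

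The row opposite KRT13, AC019349.5 (ENSG00000229732), shares 476 of its 2913 exonic bases and held most of the reads there. In the repressive line it had 182, 209 and 247 counts with vehicle and 1312, 899 and 1177 with tamoxifen, and rose by 2.60 on the log2 scale (SE 0.15, adjusted p = 1.10e-60, DESeq2). KRT13 held 1.39% of the counts of both rows with vehicle and 2.36% with tamoxifen in this line, and between 0.392% and 2.50% in the groups of the other lines. The part of these opposite-strand reads in the KRT13 values was not tested.

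KRT16, the keratin with the most counts among the tested members, is a type I keratin induced in wounded and hyperproliferative epidermis (ENSG00000186832, chromosome 17, 39766030 to 39772151, minus strand, GRCh37). With vehicle it had 57, 57 and 83 counts in the neutral line, 39, 57 and 49 in the repressive line and 84, 77 and 99 in the activating line. With tamoxifen it had 100, 61 and 101 counts in the neutral line, 50, 29 and 46 in the repressive line and 59, 49 and 59 in the activating line. In the activating line every treated library lay below every vehicle library on raw counts, and in the repressive line the groups overlapped. The tamoxifen estimates were 0.40 (SE 0.25), -0.026 (SE 0.28) and -0.60 (SE 0.26) in the neutral, repressive and activating lines, and the adjusted p in the last was 0.133 (DESeq2). For activating minus neutral the interaction was -0.999 (SE 0.36, adjusted p = 0.126, DESeq2), and without replicate 2 of the treated neutral libraries KRT16 was called.

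Of the desmosome and plakin genes, 5 were tested and PKP1 fell in the repressive line. PKP1 encodes plakophilin 1, which ties desmosomal cadherins to desmoplakin (ENSG00000081277, chromosome 1, 201252580 to 201302121, plus strand, GRCh37, no opposite-strand exon overlap). It had 87, 159 and 144 counts with vehicle and 98, 56 and 80 with tamoxifen in the repressive line. The neutral line had 156, 196 and 189 and then 157, 176 and 150 counts, and the activating line 210, 189 and 227 and then 180, 155 and 144. The repressive groups overlapped on raw and on normalized counts, since replicate 1 with vehicle, at 82.6 normalized counts, lay below 2 of the treated libraries. The means were 119 ± 32.2 and 81.3 ± 15.2 (SD, n = 3), and the log2 fold change was -0.55 (SE 0.20, adjusted p = 0.0457, DESeq2). The estimates were -0.17 (SE 0.18) in the neutral and -0.34 (SE 0.18) in the activating line, and the interactions were not called. The PKP1 call was lost in 17 of 27 alternatives, with the estimate between -0.75 and -0.40. The adjusted p was 0.240 without replicate 2 and 0.0923 without replicate 3 of the treated repressive libraries, and 0.299 without replicate 2 and 0.195 without replicate 3 of the vehicle-treated ones. Leaving out any of 7 libraries of the other lines also ended the call, with the estimate still -0.55 and the adjusted p between 0.0512 and 0.0567.

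DSP encodes desmoplakin, which links desmosomes to keratin filaments. It had 32 to 73 counts per library, and its tamoxifen estimates were 0.24 (SE 0.29), 0.29 (SE 0.30) and 0.13 (SE 0.29) in the neutral, repressive and activating lines. PPL and EVPL encode periplakin and envoplakin, plakins of the cornified envelope. PPL ranged from 38 to 93 counts, with estimates of 0.45 (SE 0.26), 0.46 (SE 0.25) and -0.21 (SE 0.25) in the same order. EVPL ranged from 7 to 29 counts, with 0.73 (SE 0.50), 0.71 (SE 0.45) and -0.023 (SE 0.45). PKP3, plakophilin 3, ranged from 7 to 25 counts, with -0.22 (SE 0.51), -0.96 (SE 0.52) and 0.57 (SE 0.52). None of these 4 genes was called in any of the 9 comparisons by DESeq2. The row opposite DSP, RP3-512B11.3, shares 81 of its exonic bases and had at most 3 counts in a library.

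S100 proteins bind calcium, and S100A8 and S100A9 form calprotectin. S100A14, the S100 member with the most counts (ENSG00000189334, chromosome 1, 153586731 to 153589462, minus strand, GRCh37), had 31, 38 and 41 counts with vehicle and 63, 50 and 57 with tamoxifen in the neutral line. It had 42, 42 and 29 and then 35, 31 and 23 counts in the repressive line, and 47, 60 and 36 and then 64, 75 and 51 in the activating line. Treated and vehicle libraries were separate in the neutral line and overlapped in the other lines. The estimates were 0.62 (SE 0.29), -0.15 (SE 0.31) and 0.44 (SE 0.28), with no adjusted p in the neutral line and 0.854 and 0.408 in the repressive and activating lines (DESeq2). S100A9 ranged from 3 to 43 counts and S100A2 from 7 to 40, with tamoxifen estimates between 0.029 and 0.60 and between 0.0088 and 0.84, and neither was called in any of the 9 comparisons.

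CSTA encodes cystatin A, a cysteine protease inhibitor of keratinocytes and the tested member of its group (ENSG00000121552, chromosome 3, 122044095 to 122060816, plus strand, GRCh37). It had 2, 1 and 4 and then 5, 6 and 5 counts in the neutral line, 8, 0 and 1 and then 0, 1 and 5 in the repressive line, and 2, 15 and 3 and then 10, 8 and 10 in the activating line, each time with vehicle first. Its largest tamoxifen estimate, 1.18 in the neutral line, had an SE of 1.08, and a difference was not detectable at this depth. KLF4 encodes a zinc finger transcription factor needed for the skin barrier (ENSG00000136826, chromosome 9, 110247133 to 110252763, minus strand, GRCh37). It had 10, 14 and 9 and then 10, 9 and 9 counts in the neutral line, 8, 12 and 4 and then 4, 5 and 9 in the repressive line, and 20, 8 and 9 and then 4, 9 and 12 in the activating line. Its estimates ran from -0.54 (SE 0.62) to -0.21 (SE 0.67), and it had an adjusted p in the repressive line alone, 0.907 (DESeq2). The gene opposite KLF4, ENSG00000289987, was not analysed here.

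The vehicle-treated lines were compared as a baseline, which shows how they stood before induction. For repressive minus neutral 1 of 16 members was called, PKP1, with a background of 2.51%. PKP1 was lower in the repressive line, 119 ± 32.2 against 179 ± 14.1 normalized counts (SD, n = 3), at -0.58 (SE 0.18, adjusted p = 0.0382, DESeq2). This call rests on replicate 1 of the vehicle-treated repressive line, without which the estimate was -0.38 with an adjusted p of 0.322, and on replicates 2 and 3 of the neutral line, each leaving 0.133. It was also lost with edgeR (0.0793), limma-voom (0.0648), scaling by total counts (0.0613) and no independent filtering (0.0639). LY6D was at -1.37 (SE 0.49, adjusted p = 0.0887, DESeq2), and its opposite row was called lower at -0.99 (SE 0.25, adjusted p = 0.00365, DESeq2). An unadjusted p under 0.05 by DESeq2 was reached by 6 of 16 members and 607 of 5816 rows for repressive minus neutral. For activating minus neutral 0 of 16 were called and 0 of 16 kept an adjusted p in DESeq2, with a background of 0.808%. There 1 of 16 (EVPL) and 413 of all rows had an unadjusted p under 0.05 by DESeq2, and edgeR and limma-voom also called 0 members.

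For activating minus repressive 3 of 16 members were called, all higher in the activating line, with a background of 1.72%. An unadjusted p under 0.05 by DESeq2 was reached by 4 of 16 members and 587 of 5816 rows. PKP1 stood at 194 ± 11.5 against 119 ± 32.2 normalized counts, LY6D at 22.5 ± 6.43 against 7.10 ± 2.26 and KRT16 at 80.4 ± 8.10 against 44.4 ± 7.11 (SD, n = 3). Vehicle libraries of the 2 lines did not overlap for any of these 3 genes. The log2 differences were 0.70 (SE 0.18, adjusted p = 0.00799) for PKP1, 1.67 (SE 0.48, adjusted p = 0.0209) for LY6D and 0.86 (SE 0.26, adjusted p = 0.0355) for KRT16 by DESeq2. Without replicate 3 of the vehicle-treated activating line the adjusted p values were 0.107, 0.215 and 0.282 in that order. Without replicate 1 of the vehicle-treated repressive line they were 0.112 for PKP1 and 0.159 for KRT16, and without its replicate 2 the value was 0.154 for LY6D. The KRT16 call was also lost without replicate 2 of the activating line (0.0655) or replicate 3 of the repressive line (0.0999). With edgeR it was 0.0883 and with limma-voom 0.0916. LY6D was at 0.197 with limma-voom, and in DESeq2 its adjusted p was missing when replicate 1 of the activating vehicle group was left out.

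The 36 members under the filter held 789 counts in all 18 libraries, with at most 15 in 1 library. S100A7 was at 0 in every library. The vehicle-treated repressive line was low in their sum, with 15, 17 and 20 counts (20.4 to 25.2 CPM), against 42, 37 and 59 in the neutral and 76, 47 and 68 in the activating line with vehicle. The ratio of the group sums was 2.76 for neutral over repressive (95% counting interval 1.99 to 3.88) and 3.75 for activating over repressive (2.75 to 5.20). With tamoxifen the sums were 47, 35 and 37 counts in the repressive line, above its vehicle libraries in each, 40, 57 and 49 in the neutral line and 68, 37 and 38 in the activating line. The ratio of tamoxifen to vehicle in the repressive line was 2.39 (1.71 to 3.38). All of these ratios are taken against the vehicle-treated repressive line, which had the lowest sum of the 6 groups, so they are descriptions only. The same ratios were not computed for the other rows under the filter. The sums have no test.

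By role, the 11 cornified envelope members under the filter were SBSN (56 counts in all libraries), SPRR1A (31), IVL and SPRR3 (5 each), SPRR2D, CRNN and SCEL (3 each), SPRR2A and KRTDAP (2 each), and CNFN and TGM3 (1 each). They had 0 counts in each of the 3 vehicle-treated repressive libraries, 9, 0 and 12 in the neutral and 16, 11 and 17 in the activating line with vehicle. With tamoxifen the sum was 2, 0 and 3 counts in the repressive line, 1, 7 and 11 in the neutral line and 13, 8 and 2 in the activating line. SCEL had its 3 counts in the treated repressive line, and SCEL-AS1 on the opposite strand had 0 in every library. SBSN, which encodes suprabasin, made up 24 of the 44 counts of the vehicle-treated activating line.

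The 5 suprabasal keratins under the filter were KRT10 (73 counts), KRT6C (64), KRT6B (30), KRT4 (23) and KRT1 (7). Their sum was 3, 6 and 5 counts in the vehicle-treated repressive line and 11, 4 and 8 with tamoxifen, against 14, 9 and 20 and then 13, 14 and 11 in the neutral line and 23, 9 and 17 and then 13, 5 and 12 in the activating line. KRT10, the partner of KRT1 in the spinous layer of the epidermis, had 24 counts over the vehicle-treated neutral libraries, 15 of them in replicate 3, and 6 over the treated ones, and TMEM99 on its opposite strand had at most 5 in a library. The 4 desmosomal cadherins were DSC3 (71), DSG3 (48), DSC2 (42) and DSG1 (3). Their sum was 4, 4 and 3 counts with vehicle and 11, 12 and 10 with tamoxifen in the repressive line, 9, 7 and 12 and then 22, 9 and 6 in the activating line, and 15, 4 and 10 and then 13, 5 and 8 in the neutral line. The treated repressive total of 33 counts lay within the 26 to 37 of the other lines. DSC2 had 0 counts over the vehicle-treated and 13 over the treated repressive libraries, against 7 and 5 in the neutral and 7 and 10 in the activating line. The row opposite DSG1, RP11-534N16.1, had at most 5 counts in a library.

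**Figure D4:**
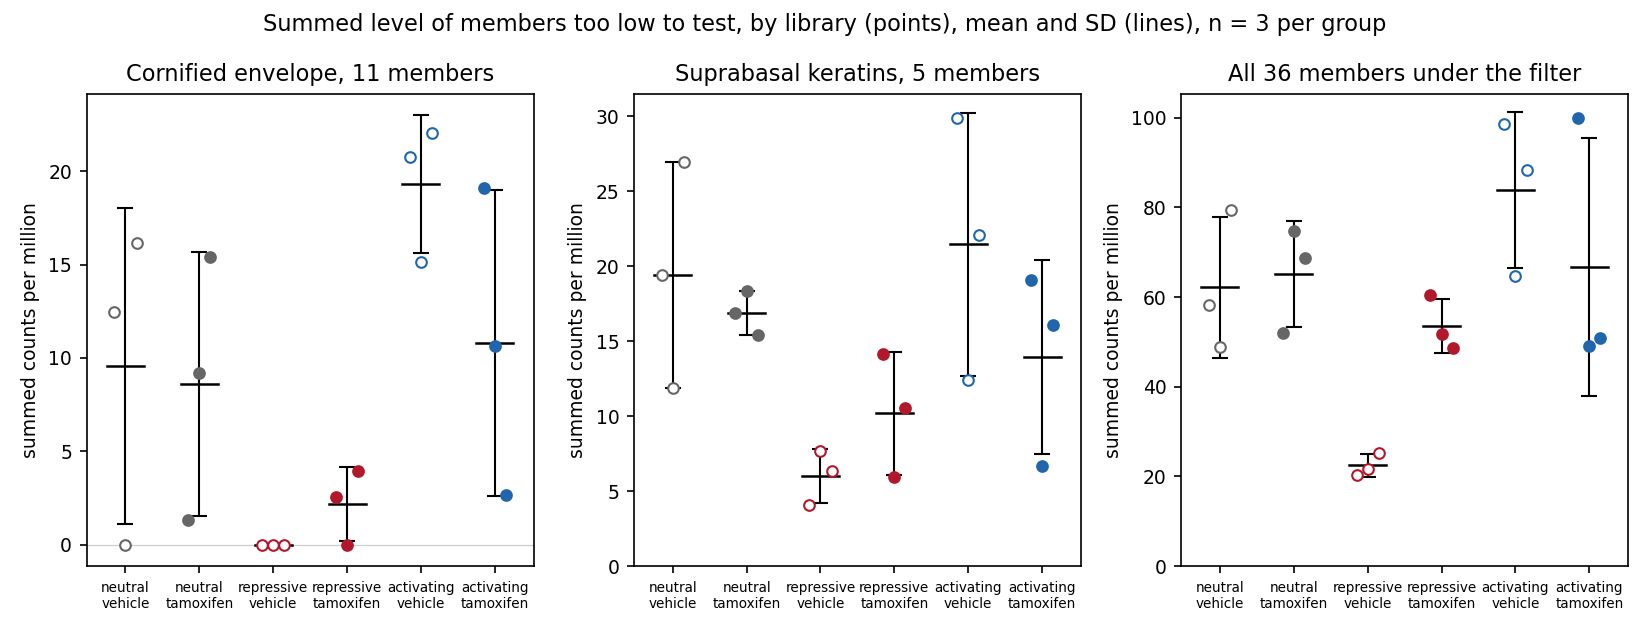
Summed CPM (y axes) of the members too low to test, for 11 cornified envelope genes, 5 suprabasal keratins and all 36, by group, with 1 point per library and lines for the mean and SD. The vehicle-treated repressive libraries are at 0 in the first panel and between 20.4 and 25.2 CPM in the last.

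The 6 serpins and protease inhibitors under the filter were SERPINB1 (14 counts), A2ML1 (8), SERPINB13 (6), SERPINB4 (4), SERPINB2 (2) and SERPINB3 (1), and their sum did not exceed 8 counts in any group. SERPINB3, the squamous cell carcinoma antigen, had its single count in the treated neutral line, while SERPINB11, which shares 620 exonic bases on the opposite strand, had 94, 70 and 50 counts with vehicle and 454, 596 and 455 with tamoxifen in the repressive line (log2 fold change 3.02, SE 0.23, adjusted p = 4.38e-38, DESeq2). Of the calcium-binding genes, S100A8 had 28 counts, CALML5 13 and S100A7 0. Of the surface and matrix genes, EMP1 had 31, LYPD3 29 and ECM1 26. Of the transcription factors, ZNF750 had 83, OVOL1 36, GRHL3 26 and GRHL1 9. TBCD, opposite ZNF750, had 2 to 19 counts per library, and AC010969.1, opposite GRHL1, had 0 in every library. OVOL1 had 0 counts over the vehicle-treated repressive libraries and 8 over the treated ones, against 8 and 13 in the activating and 5 and 2 in the neutral line. The row opposite it, RP11-770G2.5, shares 1039 exonic bases. In the repressive line that row had 52, 102 and 78 counts and then 178, 111 and 168 (log2 fold change 1.17, SE 0.21, adjusted p = 1.11e-06, DESeq2). Its treated sum there was 457 counts, against 366 and then 509 in the activating and 325 and then 396 in the neutral line.

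A further list of 87 squamous genes not among the 52 was read for comparison. Of these genes, 86 were in the table and 24 were tested. The list was chosen with earlier results of these data known, so its counts beside the shares over all rows are descriptions. With tamoxifen in the repressive line 5 of 24 rose and 1 fell, in the activating line 1 fell, and in the neutral line 0 were called by DESeq2. The shares over all rows were the 5.62% higher and 9.65% in either direction given above for the repressive, 2.80% for the activating and 0.774% for the neutral line. CDSN, the corneodesmosome protein corneodesmosin, rose from 74.3 ± 11.98 to 180 ± 16.6 normalized counts (SD, n = 3) in the repressive line, at 1.28 on the log2 scale (SE 0.22, adjusted p = 1.90e-07, DESeq2), and PSORS1C1 overlaps 2394 of its exonic bases on the opposite strand. KRT17 rose at 0.61 (SE 0.12, adjusted p = 1.99e-05, DESeq2), and ENSG00000289252 overlaps 307 of its exonic bases on the opposite strand. KRT17 was also the gene that fell in the activating line, at -0.51 (SE 0.12, adjusted p = 0.00135, DESeq2). GJB6, the gap junction gene for connexin 30, rose from 8.97 ± 4.81 to 36.2 ± 6.23, at 2.02 (SE 0.42, adjusted p = 4.59e-05, DESeq2). With vehicle it stood lower in the repressive than in the neutral line, at -1.60 (SE 0.43, adjusted p = 0.00761, DESeq2), and the other lines had 27.2 ± 6.79 and 38.4 ± 9.42 (neutral) and 42.7 ± 14.5 and 40.8 ± 5.64 (activating) normalized counts with vehicle and tamoxifen. KRT6A fell from 68.5 ± 8.66 to 30.8 ± 5.47, at -1.16 (SE 0.26, adjusted p = 1.75e-04, DESeq2). The splitting of reads between near-identical paralogs, given above, makes KRT17 and KRT6A uncertain as well. The median over the 24 was 0.26 in the repressive line, 0.032 in the neutral line and 0.012 in the activating line. Of the 24, CDSN alone was called for the interaction of repressive minus neutral, with a background of 3.85%. For activating minus repressive 1 was called higher and 4 lower, with a background of 4.25%, and KRT17, CDSN, GJB6 and KRT6A were among them.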

How the data were processed

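RNA-seq libraries were made by the authors from RWPE1 MACC cells with the Illumina Stranded mRNA Prep kit, and processed with nf-core/rnaseq on GRCh37 and salmon (version 1.9.0, per the labels). The values the authors deposited are expected counts, salmon's estimate of the reads of each gene, scaled neither for depth nor for length. Of these values 1.10% were not whole, and all were rounded. Positions and exon overlaps came from GENCODE mapped to GRCh37, which matched 96.1% of rows by Ensembl identifier and all 52 members.

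The filter kept rows that reached 10 counts in 3 or more libraries, with 97.6% of all counts. Group means were fitted with DESeq2 1.42.0 in R 4.3.3 over the 18 libraries together, using its default size factors, Wald tests, independent filtering tuned for 0.05 and Benjamini-Hochberg adjustment over all rows tested. Rows with an adjusted p under 0.05 were called. Normalized counts are counts divided by the size factors. Tests with edgeR 4.0.16 (quasi-likelihood) and limma-voom (limma 3.58.1), other scalings and filters, a replicate block and the removal of each library were alternatives. Independent filtering tuned for 0.1 and a block across lines were added after seeing the data. The precision of a ratio of 2 summed counts is given by exact binomial intervals (95%, scipy 1.17.1).

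Genes were named by a rule. Members called in any comparison and the member with the most counts of each of 7 role groups are given in every library, other tested members by ranges, and members under the filter by sums. SPRR1B and KRT13 fall outside this rule and are also given in every library, SPRR1B because its values stood out. At most 4 called genes of the further squamous list are named. The members and lists were chosen with earlier results of these data known.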

Additional observations from a re-analysis of the deposited data

Results flagged for a closer look

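The tamoxifen effect on LY6D differed between lines by a test of the difference itself. For repressive minus neutral it was 3.78 on the log2 scale, from an effect of 3.19 (SE 0.46) in the repressive and -0.59 (SE 0.45) in the neutral line. For activating minus repressive it was -3.63, with -0.43 (SE 0.42) in the activating line. LY6D was higher with tamoxifen in 3 of 3 repressive libraries than in any vehicle library of that line. The same 6 repressive libraries enter both differences, and the vehicle-treated repressive line, at 7.10 normalized counts, started below the neutral (18.3) and the activating line (22.5).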

How the results depend on the processing

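Counts of called members were recomputed under up to 27 alternatives, and none of the called fold changes of LY6D, TGM1, PKP1 and KRT16, nor that of KRT13, changed sign. LY6D with tamoxifen in the repressive line was called in 27 of 27, with log2 fold changes of 2.94 to 3.35. For tamoxifen in the repressive line 3 members were called, and 1 to 3 when a library was left out (1, LY6D, without replicate 2 or 3 with tamoxifen or replicate 3 with vehicle of that line). For the interaction of repressive minus neutral the count of 1 became 0 with the replicate block within each line and 0 to 1 when a library was left out, because LY6D then lost its adjusted p to independent filtering, with a blocked estimate of 3.82 and an unadjusted p of 1.69e-07 in DESeq2. For activating minus neutral it was 0, and 0 to 1 when a library was left out (KRT16, without replicate 2 of the treated neutral line). For the vehicle-treated lines, repressive minus neutral gave 0 in place of 1 with edgeR, limma-voom, scaling by total counts and the replicate block across lines, and 0 to 1 when a library was left out. Activating minus repressive gave 1 in place of 3 with limma-voom and 0 to 3 when a library was left out. The cause of the other changes was not tested. Over all tested rows the background counts also moved. Tamoxifen in the repressive line gave 561 calls in the DESeq2 model, 523 with edgeR and 485 with limma-voom. Tamoxifen in the neutral line gave 45 calls in the DESeq2 model, 22 with edgeR and 18 with limma-voom, tamoxifen in the activating line 163 and 103 with edgeR, activating minus neutral 36, 17 and 19, and the vehicle-treated activating minus neutral lines 47, 4 and 7. Replicate numbers did not pair the libraries (correlations of same-numbered deviations from -0.128 to 0.0485), and the block within lines was not run for comparisons of vehicle-treated lines, where line lies between blocks. Scaling by total counts moved the median log2 fold change of all rows by -0.13 for tamoxifen in the repressive line, by -0.13 for repressive minus neutral and by 0.15 for activating minus repressive. Size factors from rows with no opposite-strand overlap moved it by 0.14 and -0.11 for these interactions. At most 792286 counts per library were available, and 36 of 52 members were below the filter.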
